A study of Mus musculus with 6 samples.

Results

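The genes of the interleukin-1 family and of the inflammasome were read out in microglia, the resident macrophages of the brain, kept in culture with or without signals of the brain environment. The set was fixed by symbol and holds 10 of the 41079 genes listed in the count table, namely Il1a, Il1b, Il1rn, Il1r2, Il18, Il18bp, Nlrp3, Pycard, Casp1 and Gsdmd. All 10 symbols were found. The 6 libraries came from primary brain microglia of C57Bl/6N mice aged 1 to 3 days, 3 from control cultures and 3 from optimized cultures. Control cells were kept in serum-free DMEM/F12. The labels name 100 ng/mL each of human TGFbeta, IL34 and CX3CL1 for the optimized cells, and the study's methods add cholesterol, insulin-transferrin-selenium and a collagen IV coating. Cells of both groups had been grown out of mixed glial flasks fed with 20% L-929 conditioned medium, a source of M-CSF, and were shaken off before the comparison. By the study's methods, the flask medium and a brief seeding step held serum, and microglia were harvested weeks after isolation. How long the cells of these libraries were then cultured is not given in the sources used here. No library received a single supplement, so the supplements cannot be told apart. Several neonatal brains of both sexes were pooled per flask, and the sources used here do not give which flask or harvest each library came from. The libraries are described as biological replicates, and p-values measure the spread between these libraries only.

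IL-1α and IL-1β are the 2 ligands of the IL-1 receptor, and IL-1β and IL-18 are made as inactive precursors. Inflammasomes are protein complexes in which a sensor such as NLRP3 recruits the adaptor ASC, encoded by Pycard, and caspase-1, which then cleaves pro-IL-1β, pro-IL-18 and gasdermin D, and cleaved gasdermin D forms pores in the plasma membrane. In microglia, transcription of Il1b and Nlrp3 is known as the priming step that precedes assembly of the complex. The system is restrained by a receptor antagonist (Il1rn), a decoy receptor (Il1r2) and a soluble binding protein for IL-18 (Il18bp). Cleavage, secretion and protein levels were not measured here.

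The count totals ranged from 20628148 to 27261839 per library. Of 8 microglia markers 7 were listed, and their summed level was 5880 to 5980 CPM (counts scaled to library size after TMM normalisation) in control and 10300 to 12000 CPM in optimized libraries. Markers of other immune cells that could add to the IL-1 signal were low. The 7 neutrophil markers summed to 0.0874 to 0.22 CPM in control and 1.45 to 3.07 CPM in optimized libraries. The highest of them was S100a8, at a mean of 0.157 CPM in control and 1.98 CPM in optimized libraries, and S100a9, Ly6g, Mpo, Elane and Ngp had 0 counts in all libraries. S100a8 was called higher, at 3.6 on the log2 scale (edgeR, adjusted p = 0.00039). The 5 monocyte markers summed to 0.7 to 1.32 CPM in control and 0.532 to 4.17 CPM in optimized libraries, with Chil3 at 0. The upper end came from optimized library 1, with 54 counts of Plac8 and 33 of Ccr2. Optimized libraries 2 and 3 had 0 counts of Plac8, and 14 and 10 of Ccr2. The 5 T cell markers stayed between 0.331 and 1.21 CPM, with Cd3e and Cd2 at 0. The 5 neuron markers summed to at most 4.26 CPM, and only Nefl among them was called. It was higher, at 2.3 on the log2 scale (edgeR, adjusted p = 0.0019), from a mean of 0.227 CPM in control libraries. The 5 astrocyte markers summed to 32.1 to 35.3 CPM in control and 21.4 to 25 CPM in optimized libraries. Of these only Aldh1l1 was called, at a mean of 16.5 against 4.64 CPM, while Gfap (4.18 against 4.68 CPM) and Gja1 (5.64 against 7.94 CPM) had higher means in the optimized libraries. The 5 oligodendrocyte markers summed to 125 to 140 against 156 to 190 CPM, and the 5 fibroblast markers to 21.3 to 27.8 against 22 to 78.7 CPM. Of the oligodendrocyte markers only Mbp was called, higher at a mean of 94.2 against 119 CPM (edgeR, adjusted p = 0.023). No fibroblast marker was called. The upper end of the fibroblast sum came from optimized library 3, where Col1a1 and Col1a2 were at 31.5 and 31.6 CPM. In optimized libraries 1 and 2, Col1a1 was at 11.65 and 8.77 CPM and Col1a2 at 13.1 and 7.2 CPM. The part of these cells in the results below was not tested. In RNA from whole cultures, fewer cells of a type and less RNA per cell cannot be told apart.

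Under the optimized conditions, 6 of the 10 genes fell and none rose. Il1b fell most, by about 10-fold, followed by Il1rn, Casp1, Nlrp3, Gsdmd and Il18. Il1a, Il18bp and Pycard did not pass the test, and Il1r2 had too few counts to be tested. Calls are adjusted p-values under 0.05 from the quasi-likelihood test of edgeR, with Benjamini-Hochberg correction over 14618 genes. In the background, 29.8% of all genes tested were called, 15.2% lower and 14.7% higher, against 6 lower and 0 higher of the 9 members tested. At an unadjusted p under 0.05, edgeR and DESeq2 each placed 6 members lower and 0 higher. The median log2 fold change was -0.69 over the 9 genes and 0.0079 over all genes tested. With library size alone as scaling, 32.3% of the called genes of the whole table were higher, against 49.1% with TMM, and 6 members were again lower and 0 higher.

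**Figure D1:**
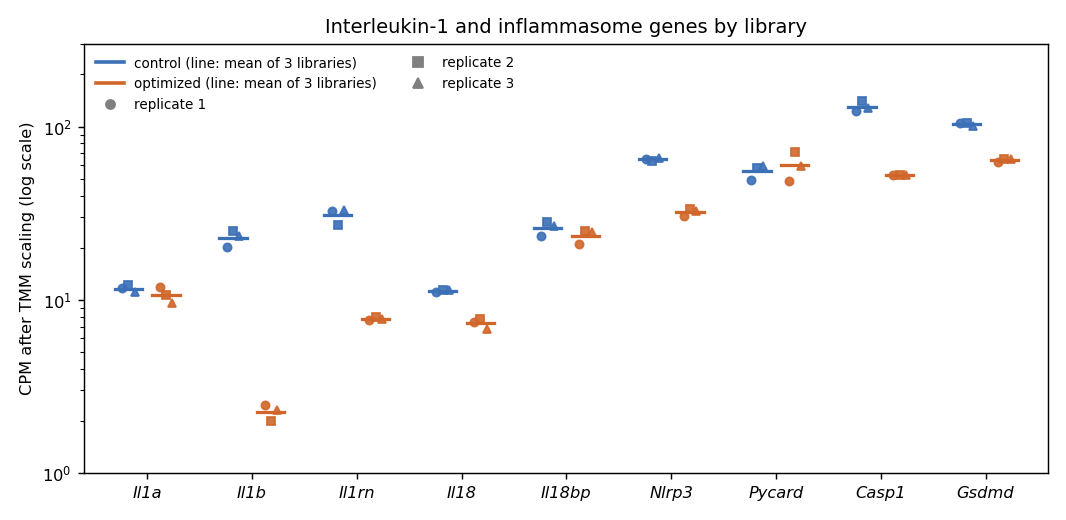
Level of 9 genes in each library, in CPM after TMM scaling on a log axis. Points are libraries (shape gives the replicate number) and lines are the means of 3 control (blue) and 3 optimized (orange) libraries. The groups are apart for Il1b, Il1rn, Il18, Nlrp3, Casp1 and Gsdmd and overlap for Il1a, Il18bp and Pycard.

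Among the ligands, Il1b encodes the precursor of IL-1β, which caspase-1 cleaves. It is on chromosome 2 of GRCm39 from 129206490 to 129213059 (minus strand), with 7 exons in its canonical transcript. Its counts were 460, 609 and 635 in control libraries 1 to 3 and 52, 47 and 48 in optimized libraries 1 to 3. Every optimized library was far below every control library. In CPM it fell from 22.7 ± 2.41 to 2.26 ± 0.24 (SD, n = 3 each). This is 10.1-fold lower, or -3.33 on the log2 scale with a standard error of 0.15 (edgeR, adjusted p = 2.2e-07). Of the 14618 genes tested, Il1b had the 45th lowest log2 fold change. The antisense gene Il1bos, which shares 95 exon bases with it on the other strand, had 0 to 8 counts per library.

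Il1a encodes IL-1α, a ligand of the same receptor that does not need caspase-1 to be active. It is the neighbour of Il1b on the same strand, at 129140291 to 129152098 of chromosome 2, and the one listed gene between them, the snRNA gene Gm25703, had 0 counts. Il1a had 267, 297 and 301 counts in control and 251, 250 and 197 counts in optimized libraries. Its groups overlapped after scaling, at 11.6 ± 0.55 and 10.7 ± 1.18 CPM for control and optimized cultures (SD, n = 3 each). The log2 fold change was -0.12 with a 95% interval from -0.39 to 0.16 (edgeR, adjusted p = 0.53), so a fall like that of Il1b lies outside the interval, while a modest change in either direction does not. Exons of Gm14023 on the other strand share 477 bases with Il1a, and this gene had 61 to 90 counts per library. The strand setting of the counting is not given in the sources used here, so reads of the 2 genes cannot be told apart.

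The 250 bases before the transcript starts of these neighbours are shown because the genes differed in response, as are those of Il1rn, described next. The sequences are from GRCm39, 5′ to 3′ on the strand of the gene, with the start taken from the canonical transcript of GENCODE M39. They are Il1a at chr2:129152099-129152348 (minus strand), Il1b at chr2:129213060-129213309 (minus strand) and Il1rn at chr2:24226615-24226864 (plus strand). Capitals mark matches to 7 short motifs.
Il1a: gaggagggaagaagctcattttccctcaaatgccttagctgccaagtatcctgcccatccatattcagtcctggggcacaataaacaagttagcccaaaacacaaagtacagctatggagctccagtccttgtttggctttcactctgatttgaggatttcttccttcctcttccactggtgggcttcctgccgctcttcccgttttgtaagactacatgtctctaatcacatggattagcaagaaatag
Il1b: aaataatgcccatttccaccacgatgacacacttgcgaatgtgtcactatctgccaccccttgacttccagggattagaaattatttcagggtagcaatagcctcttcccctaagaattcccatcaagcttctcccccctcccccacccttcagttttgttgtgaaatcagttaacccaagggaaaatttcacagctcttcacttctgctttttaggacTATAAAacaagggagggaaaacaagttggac
Il1rn: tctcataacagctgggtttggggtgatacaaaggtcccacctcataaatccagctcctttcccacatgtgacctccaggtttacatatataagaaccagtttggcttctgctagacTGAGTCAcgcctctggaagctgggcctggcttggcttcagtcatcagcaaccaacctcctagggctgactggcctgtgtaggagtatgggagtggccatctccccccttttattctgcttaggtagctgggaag
The motifs searched were κB (GGNNTTTCC), ISRE (TTTCNNTTT), AP-1 (TGANTCA), PU.1 (GAGGAAGT), C/EBP (TTGCNNAA) and SMAD (GTCTAGAC) on both strands, and the TATA box (TATAAA) on the strand of the gene. In the window of Il1b, the one match was a TATA box at positions -31 to -26 from the start, a motif that 8.03% of 21747 protein-coding promoters hold in a window of this length. In that of Il1rn it was an AP-1 match at -134 to -128, a motif in 6.18% of promoters. The window of Il1a held none of the 7. Matches are letters only and were not tested for binding. Sites that differ from these letters were not searched, so a window without a match can still hold such a site.

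Il1rn encodes the IL-1 receptor antagonist, which occupies the receptor without signalling. In the mouse it lies apart from Il1a and Il1b, on chromosome 2 from 24226865 to 24241506 (plus strand). Its counts were 740, 661 and 904 in control and 162, 186 and 161 in optimized libraries, with no overlap between the groups. The optimized libraries were close to each other, at 7.67 to 7.92 CPM, while the control libraries reached 33.1 CPM. Il1rn was thus 3.95-fold lower, or -1.98 on the log2 scale with a standard error of 0.12 (edgeR, adjusted p = 1.3e-06).

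Il1r2 encodes the decoy receptor of IL-1, which binds the ligand and does not signal. It was at the limit of detection, with 0 counts in all 3 control libraries and 0, 2 and 1 counts in the optimized libraries. A count of 0 allows up to 3 counts, or 0.11 to 0.131 CPM in the control libraries, and the optimized values were below this limit as well. No fold is given, and a difference was not detectable at this depth. The signalling receptor Il1r1 was also low, with 29, 24 and 19 counts in control against 29, 39 and 41 in optimized libraries. The difference of 0.78 on the log2 scale, with a standard error of 0.32, did not pass the test (edgeR, adjusted p = 0.10).

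Il18 encodes IL-18, the other cytokine cleaved by caspase-1. It lies on chromosome 9 from 50466081 to 50493633. It had 254, 280 and 310 counts in control and 158, 182 and 141 counts in optimized libraries. The scaled levels were tight, 11.3 ± 0.17 CPM in control and 7.35 ± 0.48 CPM in optimized libraries (SD, n = 3 each), without overlap. The fall of -0.62 on the log2 scale, with a standard error of 0.12, was the smallest of the 6 that passed (edgeR, adjusted p = 0.0029).

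Il18bp encodes the IL-18 binding protein, which captures free IL-18. It had 535, 693 and 729 counts in control and 443, 587 and 506 counts in optimized libraries, and the groups overlapped at 26.1 ± 2.49 and 23.5 ± 2.19 CPM (SD, n = 3 each). The 95% interval of the difference, -0.15 on the log2 scale, ran from -0.40 to 0.098 (edgeR, adjusted p = 0.35). Its exons share 446 bases with those of Numa1, a mitotic spindle gene on the other strand of chromosome 7, and Numa1 had 3524 to 4141 counts in control and 4156 to 4968 counts in optimized libraries. How many reads of Numa1 are in the count of Il18bp was not tested.

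Among the inflammasome parts, Nlrp3 encodes the sensor that is induced on priming. It lies on chromosome 11 from 59432394 to 59457782 (plus strand). It had 1486, 1552 and 1795 counts in control and 645, 782 and 673 counts in optimized libraries. Each optimized library was below each control library, at 32.1 ± 1.43 against 64.7 ± 1.23 CPM (SD, n = 3 each). Nlrp3 was 2.01-fold lower, or -1.01 on the log2 scale with a standard error of 0.082 (edgeR, adjusted p = 1.1e-05).

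Casp1 encodes caspase-1, the protease of the complex, on chromosome 9 from 5298508 to 5307290 (plus strand), followed by Casp4 and Casp12 on the same strand. Its counts were 2806, 3452 and 3490 in control and 1109, 1231 and 1087 in optimized libraries. The optimized libraries, at 52.5, 52.4 and 52.6 CPM, differed little from each other, and all lay far below the control libraries at 122.7, 140.8 and 127.8 CPM. Casp1 was 2.48-fold lower, or -1.31 on the log2 scale with a standard error of 0.085 (edgeR, adjusted p = 2.4e-06). Gsdmd, the gene of the pore-forming gasdermin D on chromosome 15 from 75733974 to 75739257, had 2386, 2568 and 2765 counts in control and 1317, 1524 and 1351 counts in optimized libraries. It fell from 103 ± 1.92 to 64.2 ± 1.61 CPM (SD, n = 3 each) without overlap. On the log2 scale this was -0.69 with a standard error of 0.076 (edgeR, adjusted p = 9.0e-05). Exons of Casp1, Pycard and Gsdmd share 110, 485 and 283 bases with genes on the other strand that are not among the genes of the count table.

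Pycard encodes the adaptor ASC, which joins sensor and caspase, and lies on chromosome 7 from 127588558 to 127593039 (minus strand). It had 1127, 1416 and 1621 counts in control and 1026, 1676 and 1220 counts in optimized libraries. The optimized libraries spread around the control libraries, with 48.6, 71.3 and 59.0 CPM against 49.3, 57.7 and 59.3 CPM. The difference was 0.11 on the log2 scale, with a 95% interval from -0.20 to 0.42 (edgeR, adjusted p = 0.63). Optimized library 2 set the sign, since the value was -0.054 without it. With library size alone it was -0.033.

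The same windows of Casp1, which fell, and of its adaptor Pycard, which did not pass the test, are shown side by side, at chr9:5298258-5298507 (plus strand) and chr7:127593040-127593289 (minus strand) of GRCm39.
Casp1: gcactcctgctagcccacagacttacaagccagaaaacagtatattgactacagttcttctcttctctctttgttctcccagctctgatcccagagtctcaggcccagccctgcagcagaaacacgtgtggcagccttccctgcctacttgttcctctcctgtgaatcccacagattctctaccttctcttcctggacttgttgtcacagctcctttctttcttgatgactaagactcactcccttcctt
Pycard: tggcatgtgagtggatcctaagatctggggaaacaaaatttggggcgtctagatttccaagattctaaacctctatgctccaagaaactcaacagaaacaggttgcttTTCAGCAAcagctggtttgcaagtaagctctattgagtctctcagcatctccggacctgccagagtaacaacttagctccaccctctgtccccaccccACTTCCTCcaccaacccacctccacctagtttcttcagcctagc
The window of Casp1 held none of the 7 motifs. That of Pycard held a C/EBP match at -142 to -135 and a PU.1 match at -44 to -37, motifs found in 9.34% and 2.08% of promoters. The windows of the other 5 genes are inside the span of another transcript of the same gene, or reach into it, and are not printed. In them, κB matches were found for Nlrp3 (-94 to -86) and Il18 (-152 to -144) and a C/EBP match for Il18bp (-42 to -35), and none of the 7 motifs for Il1r2 and Gsdmd. The κB letters occur in 4.85% of promoters. ISRE (10.1% of promoters) and SMAD (0.239%) letters were in none of the 10 windows.

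Levels can be compared between genes only per length, for which the deposited FPKM values (fragments scaled to gene length and library size) were used. In control cultures Casp1 was highest at 87.6 ± 7.96 FPKM, followed by Gsdmd at 52.2 ± 2.86, Pycard at 26.4 ± 2.20 and Nlrp3 at 15.8 ± 0.40 FPKM (SD, n = 3 each). Casp1 was above 95.6% and Il18 above 47.3% of the genes tested. Il1b at 12.2 ± 1.34 FPKM and Il1rn at 11.1 ± 1.02 FPKM (SD, n = 3 each) came next and their libraries overlapped. Il1a (5.98 FPKM) and Il18bp (5.75 FPKM) overlapped as well, and Il18 was at 4.42 FPKM. In optimized cultures the order of the first 4 genes was the same, at 32.0 ± 1.39 FPKM for Casp1, 29.4 ± 1.02 for Gsdmd, 25.7 ± 3.85 for Pycard and 7.14 ± 0.17 for Nlrp3 (SD, n = 3 each), with overlap between Gsdmd and Pycard. Il1b was the lowest of the detected genes at 1.11 ± 0.16 FPKM (SD, n = 3), below Il1a at 5.0, Il18bp at 4.69, Il18 at 2.61 and Il1rn at 2.56 FPKM. The libraries of Il1a and Il18bp overlapped, as did those of Il18 and Il1rn.

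Ratios within a library do not depend on the scaling, and 5 were compared between the groups. Il1b was above Il1a in every control library, with 1.8, 2.14 and 2.21 times its FPKM, and below it in every optimized library, with ratios of 0.217, 0.197 and 0.255. The ratio was 9.14-fold lower, a log2 difference of -3.19 (standard error 0.14). The ratio of the antagonist to IL-1β was higher in the optimized libraries although both genes fell. Il1rn had 1.08, 0.731 and 0.958 times the FPKM of Il1b in control and 2.1, 2.66 and 2.26 times in optimized libraries, which is a 2.54-fold higher ratio (log2 difference 1.34, standard error 0.20). Against Il1a, the antagonist had 1.95, 1.57 and 2.11 times its FPKM in control and 0.454, 0.523 and 0.575 times in optimized libraries (log2 difference -1.85, standard error 0.16). The ratio of Il18bp to Il18 was 1.3 ± 0.11 in control and 1.8 ± 0.22 in optimized libraries (SD, n = 3 each), with a log2 difference of 0.47. None of the ratios overlapped between the groups. For each of them the exact permutation p (two-sided) was 0.1, also when adjusted over the 5 ratios. With 3 libraries a group no smaller p is possible, so 0.05 cannot be reached.

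**Figure D2:**
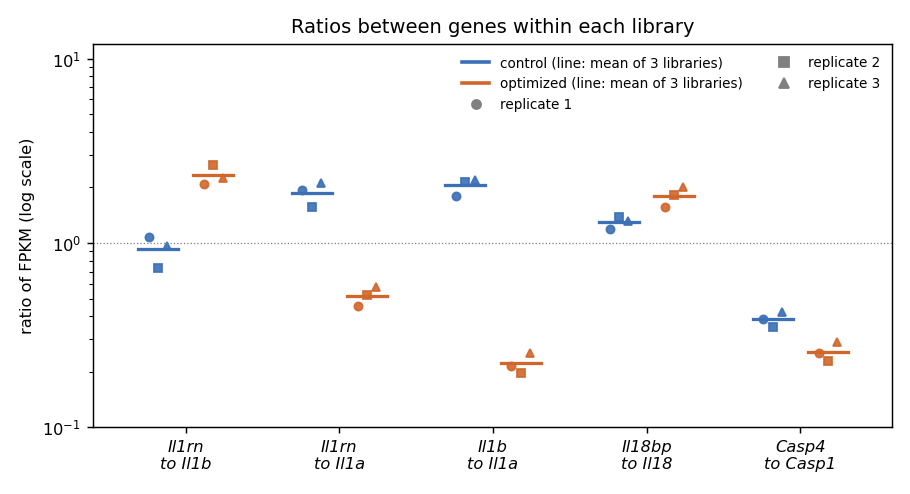
Ratio of FPKM between genes within each library on a log axis, with the dotted line at equal levels. Points are libraries and lines are the means of 3 control (blue) and 3 optimized (orange) libraries. Il1b to Il1a is 1.8 to 2.21 in control and 0.197 to 0.255 in optimized libraries, while Il1rn to Il1b is higher in the optimized libraries.

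The rest of the pathway was described with a list of 55 further genes in 6 roles, of which 41 had enough counts to test. At an adjusted p-value under 0.05 (edgeR), 12 were higher and 11 lower, where 14.7% and 15.2% of all genes tested were. The median log2 fold change was -0.078. The 12 higher genes became 7 without control library 1 or without control library 3, 8 with library size alone and 5 to 7 in the limma fits, while the lower genes numbered 11 to 13 in all alternatives. In the fit with 5, Il33 and Naip1 were not tested. Of the 7 tested caspases and pore proteins, 2 were lower. Casp4, the caspase that senses cytosolic lipopolysaccharide, fell from 49.4 ± 3.46 to 13.3 ± 1.63 CPM (SD, n = 3 each), which is -1.89 on the log2 scale (standard error 0.11). Its ratio to Casp1 in FPKM was 0.386 ± 0.038 in control and 0.257 ± 0.031 in optimized libraries (SD, n = 3 each, exact permutation p = 0.1). Ninj1, which encodes a protein that ruptures the plasma membrane after pore formation, fell from 227 ± 20.8 to 89.0 ± 18 CPM (SD, n = 3 each), which is -1.35 on the log2 scale. The other 5 tested genes of this role were not called, from Gsdme at -0.38 through Casp8 at 0.24 to Casp12 at 0.34.

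**Figure D3:**
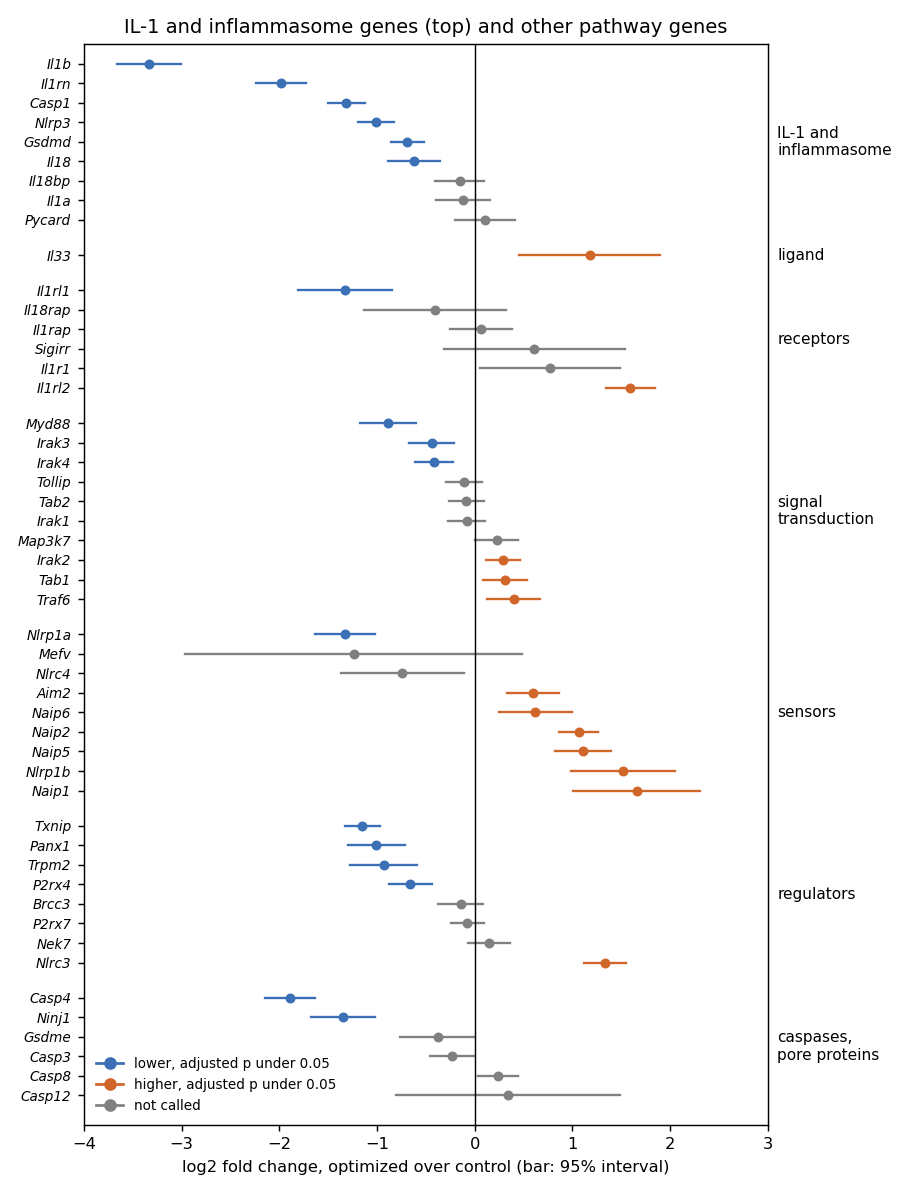
Log2 fold change, optimized over control, of the 9 tested genes of the set (top) and 40 of the 41 tested genes of the wider pathway by role. Bars are 95% intervals from edgeR, and blue and orange mark lower and higher genes with an adjusted p-value under 0.05. Il1b lies lowest at -3.33, and sensor genes lie on both sides of 0.

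Of the 9 other sensors tested, 6 were higher and 1 lower, against 14.7% and 15.2% of all genes tested. Whether they differ from Nlrp3 was not tested. Those higher were Naip1 with a log2 fold change of 1.66, Nlrp1b with 1.52, Naip5 with 1.11, Naip2 with 1.07, Naip6 with 0.62 and Aim2, a sensor of cytosolic DNA, with 0.60. Naip6 lost its call in 6 of 15 alternative settings, among them the fits without control library 1 or 3, and Aim2 in 3, all of them limma fits. The lower one was Nlrp1a at -1.32 (standard error 0.14). Nlrc4, the partner of the NAIP proteins, which recognise bacterial flagellin and secretion system parts, was at -0.74 on the log2 scale, with overlapping groups (edgeR, adjusted p = 0.076). Nlrc4 was called lower without optimized library 1 (-1.13, edgeR, adjusted p = 0.0013), without the count filter (adjusted p = 0.031) and with limma on log2(FPKM + 1) or log2(FPKM + 0.1) (adjusted p = 0.038 and 0.043). Over all alternatives its adjusted p ranged up to 0.22. Nlrc4 shares 867 exon bases with Slc30a6 on the other strand. Slc30a6 had 341 to 409 counts in control and 282 to 363 counts in optimized libraries. What part its reads have in the value of Nlrc4 was not tested. Mefv, the gene of pyrin, had 8, 24 and 15 counts in control against 14, 1 and 2 in optimized libraries, and its value of -1.24 did not pass (edgeR, adjusted p = 0.27). Optimized library 1 decided this, since without it the value was -3.11 (edgeR, adjusted p = 0.0076), while the adjusted p in the other alternatives was 0.16 to 0.61. In control cultures Nlrp3 and Naip2 were at 15.8 ± 0.40 and 16.3 ± 1.20 FPKM, and in optimized cultures at 7.14 ± 0.17 and 31.0 ± 3.79 FPKM (SD, n = 3 each). The Naip genes are near copies of each other, as are Nlrp1a and Nlrp1b, so how reads were split between them is uncertain. Nlrp6 and Nlrp12 had 0 counts in all libraries.

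**Figure D4:**
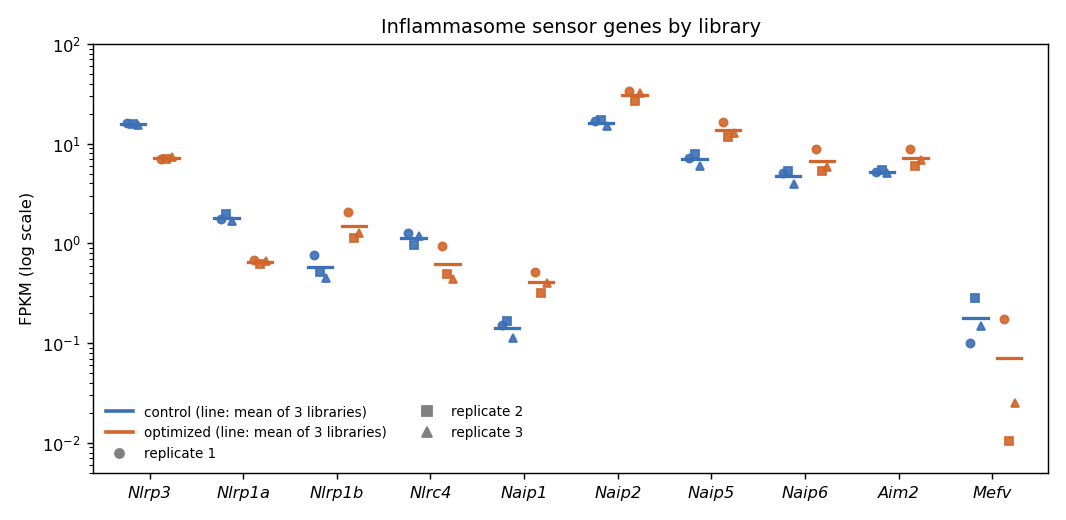
FPKM of Nlrp3 and 9 other sensor genes in each library on a log axis, points being libraries and lines the means of 3 control (blue) and 3 optimized (orange) libraries. Nlrp3 and Nlrp1a are lower in every optimized library, and Nlrp1b, Naip1, Naip2, Naip5 and Aim2 are higher in every one. Naip6 overlaps on this scale, with 5.31 FPKM in control library 2 and 5.28 FPKM in optimized library 2.

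Of the 8 tested regulators of inflammasome activation, 4 were lower and 1 higher, against 15.2% and 14.7% of all genes tested. Txnip, a thioredoxin-binding protein that can bind NLRP3, fell with a log2 fold change of -1.15, and the channel genes Panx1, Trpm2 and P2rx4 with -1.0, -0.93 and -0.66. Txnip shares 928 exon bases with Gm15441 on the other strand, which had 2871 to 3563 counts in control and 1159 to 1200 in optimized libraries. Nlrc3 was higher at 1.33. The ATP receptor gene P2rx7 and the NLRP3-binding kinase gene Nek7 had -0.073 and 0.15, with adjusted p-values of 0.52 and 0.30 (edgeR).

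Among 6 tested receptors, 1 was higher and 1 lower, against 14.7% and 15.2% of all genes tested. Il1rl2, the receptor of IL-36, was higher at 1.60 (188, 192 and 187 against 496, 551 and 459 counts) and Il1rl1, the receptor of IL-33, was lower at -1.33. The 4 others were not called, namely Il1r1, Sigirr at 0.61, Il18rap at -0.40 and Il1rap, the chain shared by several of these receptors, at 0.068. The IL-36 ligand genes Il36a, Il36b and Il36g had 0 to 5 counts per library. Il33 was the one tested ligand gene of the list, with 22, 40 and 31 counts in control against 38, 77 and 70 in optimized libraries (1.18 on the log2 scale, standard error 0.32; edgeR, adjusted p = 0.020). The call was lost without control library 1 or 3 or without optimized library 2 or 3.

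Downstream of the receptor, 3 of 10 genes were lower and 3 higher, against 15.2% and 14.7% of all genes tested. Myd88, the adaptor of the receptor, fell from 82.6 ± 4.5 to 44.7 ± 8.08 CPM (SD, n = 3 each), which is -0.89 on the log2 scale. It shares 628 exon bases with Acaa1a on the other strand, which had 3348 to 3977 counts in control and 1900 to 2444 in optimized libraries. Irak3 and Irak4 had -0.44 and -0.41. Irak4 shares 647 exon bases with Twf1, at 4097 to 5055 against 2824 to 3085 counts, and Irak3 shares 192 with Tmbim4, at 895 to 1330 against 745 to 1091 counts. What part the reads of these neighbours have in the values was not tested. Traf6, Tab1 and Irak2 were higher by at most 0.40 on the log2 scale, and each lost its call in at least 8 of 15 alternative settings.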

How the data were processed

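RNA from 3 control and 3 optimized microglia cultures was sequenced as paired-end reads. The authors used HISAT2 with the mm39 genome and featureCounts, and the deposited tables hold raw counts and, separately, FPKM for 41079 genes. Versions, annotation, strand setting and the way FPKM was computed are not given in the sources used here. In 12509 genes with enough counts, each deposited FPKM value was the count times a gene constant and a library constant. Samples were grouped by their labels, and no column belonged to other samples.

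The test was run on counts with edgeR 4.0.16 under R 4.3.3 (filterByExpr, TMM factors, glmQLFit and glmQLFTest, no covariates, 14618 genes, adjusted p-values under 0.05). Standard errors were derived from the F statistic of each gene. The common dispersion was 0.0164, a coefficient of variation of 0.128. Differences between ratios used log2 of counts plus 0.5, with an exact permutation test. The planned ratio of Il1r2 to Il1r1 is not given because Il1r2 had at most 2 counts. Coordinates and exons are those of GENCODE M39 on GRCm39, in which all 65 symbols were found.

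Named genes are the 10 members, the 3 highest and 3 lowest tested genes of each role, untested genes by counts, and genes sharing exons. Naip2, Naip6, Aim2 and P2rx4 fall outside that rule and were named after their values were seen, so that every called gene of their roles is given. Of the tested pathway genes, 1 is counted but not reported here. Members and lists were chosen with earlier results of these data known. Alternatives were DESeq2 1.42.0, RLE factors in edgeR, scaling by library size only, other count filters, a block for the replicate number, fits that left out 1 library, and limma 3.58.1 on log2(FPKM + 1) or log2(FPKM + 0.1), a scale that understates changes of low genes. The scripts were tested on simulated data. Libraries of a group differed by more than sampling noise (chi-square per degree of freedom at least 10.7).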

Additional observations from a re-analysis of the deposited data

How the results depend on the processing

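The 6 members that fell were lower and passed the test in all 15 alternative settings (highest adjusted p 0.0166, for Il18, over edgeR, DESeq2 and limma), and the counts of 6 lower and 0 higher did not move. Il1b ranged from -3.46 to -2.65 and Il18 from -0.75 to -0.57 on the log2 scale. Il1a and Il18bp stayed below 0 and uncalled. Pycard changed sign without passing the test, at -0.033 with library size alone, -0.045 with limma on log2(FPKM + 1), with or without the minimum mean FPKM of 1, and -0.047 with limma on log2(FPKM + 0.1). Among fits without one library it ranged from -0.054 (without optimized replicate 2) to 0.23. The count of higher genes in the wider pathway, 12, was 7 with limma on log2(FPKM + 1) and on log2(FPKM + 0.1) and 5 with the minimum mean FPKM. That minimum removed Il33 and Naip1, which the other limma fits called. Leaving out one library gave 7 to 12, with 7 without control replicate 1 or control replicate 3. The count of lower genes was 11 to 13. Of the 23 called, 17 kept their call in every setting in which they were tested, and none changed sign. Library size alone moved the median of all genes tested to -0.12. The 5 ratios kept their direction throughout. The same-numbered libraries did not deviate together in every pair (correlations of 0.401, -0.034 and 0.237), so the number is not taken as a pairing. With it as a replicate block, 6 members and 12 pathway genes, with Nlrc4 added (edgeR, adjusted p = 0.028), were lower and 4924 genes of the table were called, against 4360.

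Il1r2 lay under 3 counts in every library, so a difference in it was not detectable at this depth.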
